A study of Mus musculus with 16 samples.

Results

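The clustered protocadherins analysed here are the beta genes Pcdhb1 to Pcdhb20. They were found by gene symbol, as probe sets whose symbol starts with Pcdha, Pcdhb or Pcdhg and whose identifier holds neither neg nor pos. The rule found 20 genes with 1 probe set each, out of 28846 probe sets on the array and 19505 named genes that could be tested. All lie on mouse chromosome 18. The reference gene table (GRCm38.p6) lists 58 clustered protocadherin genes, of which 14 are alpha, 22 beta and 22 gamma. Among probe sets that the annotation gives to 1 gene only, 0 were alpha and 0 gamma. Probe sets that name more than 1 gene were left out, and whether any covers those clusters was not examined. The alpha and gamma clusters, Pcdhb21 and Pcdhb22 are not analysed here.

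Clustered protocadherins are cell-surface adhesion molecules of the cadherin superfamily. Each neuron expresses a small, largely random set of isoforms from alternative promoters, and cells that carry matching sets recognise each other. In olfactory sensory neurons this diversity is known to be needed for axons to sort into glomeruli of the olfactory bulb. Each beta gene is a single exon with its own promoter and makes a complete receptor without the shared cytoplasmic domain of the alpha and gamma proteins. Most of these promoters carry a conserved element bound by CTCF, which Pcdhb1 lacks.

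The study asked which neurons of the mouse olfactory mucosa respond to bourgeonal, an aldehyde odorant with a floral smell. All 24 mice were S100a5-tauGFP animals of strain C57BL/6, of both sexes and 7 to 12 weeks old, kept for 40 hours in clean-air chambers. From hour 26 they received pulses of 10 seconds every 20 minutes, of bourgeonal or of filtered air. Cells were sorted by GFP, which reports S100a5, a calcium-binding protein whose expression follows the activity of olfactory neurons. Each library held the cells of 3 pooled mice on a Clariom S array. This gives 4 groups of 4 libraries: filtered air titled GFP-, filtered air titled GFP+, bourgeonal titled GFP- and bourgeonal titled GFP+. The numbers imply 8 pools, 4 per treatment, with both gates from the same mice.

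For each of the 16 libraries the sample title gives one gate and the labelled cell type the other. Groups follow the titles. In 8 of 8 pools S100a5 was higher on the titled GFP- side, with a log2 ratio of 1.02 ± 0.25 (SD, n = 8 pools). The gate ratio is therefore given as titled GFP- over titled GFP+. The mean log2 level of 12 markers of mature olfactory neurons lay between 16.8 and 17.1 in all libraries. In both treatments it was slightly higher in libraries titled GFP-, without overlap. It was 17.039 to 17.125 against 16.922 to 17.023 in filtered air, and 17.026 to 17.136 against 16.803 to 17.014 with bourgeonal. Markers of other cells were higher in libraries titled GFP+: the mean of 10 immune markers was 10.9 to 12.1 there and 4.17 to 5.26 in libraries titled GFP-. Vomeronasal receptor genes, which the main olfactory mucosa should lack, served as a guide to background. By the 95th percentile of these genes, 19 of 20 beta protocadherins were above background in at least 1 group, and Pcdhb10 was not above it in any of the 4 groups. Pcdhb3 was not above it in filtered-air libraries titled GFP-.

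The beta protocadherins were higher in libraries titled GFP- than in libraries titled GFP+. Over the 8 pools 13 of 20 members were higher and 0 lower (limma, adjusted p under 0.05), against 14.4% of all tested genes higher and 13.2% lower. Without adjustment 16 members had a p under 0.05, as did 7785 of all 19505 genes. The log2 gate ratio was positive for 20 of 20 members, from 0.11 for Pcdhb3 to 0.61 for Pcdhb8, which is 1.08-fold to 1.53-fold. It was also positive for 66.4% of all genes and for 293 of the 321 vomeronasal receptors that served as the background guide. The median over members was 0.41, and the median over all genes was 0.10. In a sorted cell pool, fewer cells that express a gene and less of its RNA per cell cannot be told apart. The number called rested on single pools: it was 7 without filtered-air pool 2 or without bourgeonal pool 2, and 8 without filtered-air pool 4 or without bourgeonal pool 3.

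**Figure D1:**
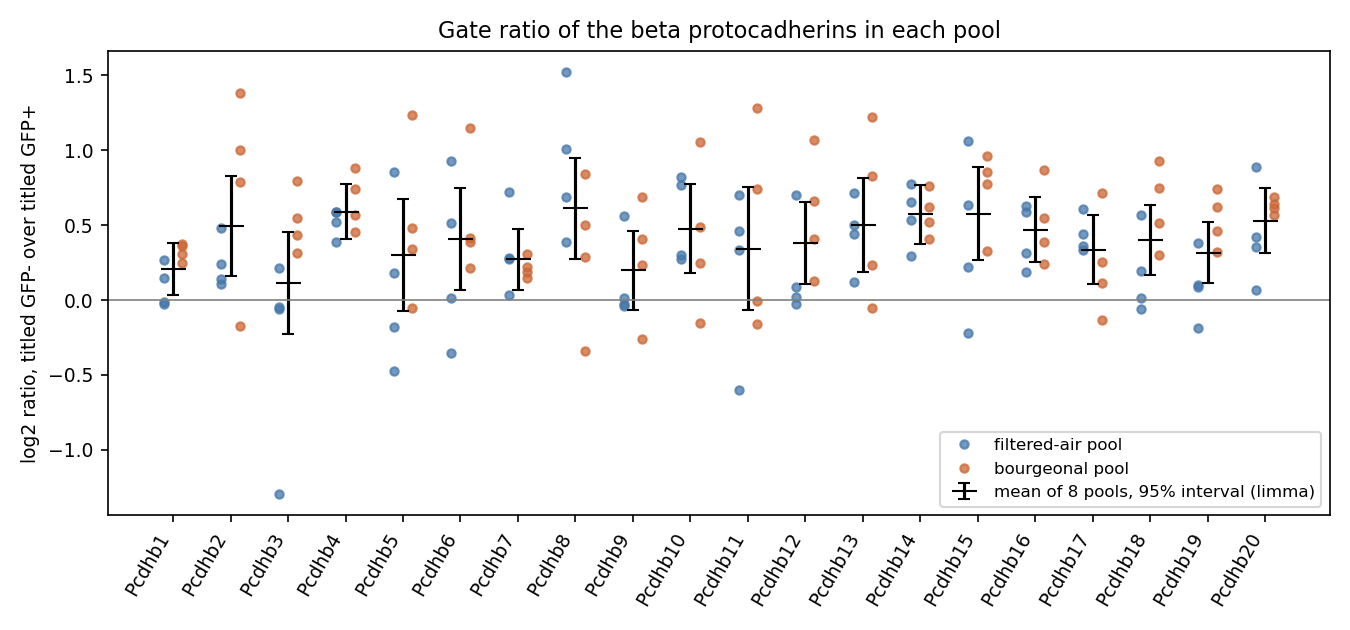
Log2 gate ratio (titled GFP- over titled GFP+, vertical axis) of each beta protocadherin (horizontal axis) in each of the 8 pools, as points, with the limma mean and its 95% interval. Of 160 points 136 lie above 0, and the intervals of Pcdhb4 and Pcdhb14 lie farthest from 0 relative to their width.

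Part of this shift depends on how libraries are scaled. The background genes moved the same way: the 321 vomeronasal receptors had a median gate ratio of 0.27, with 55 higher and 0 lower. After centring each library on these receptors the median over members was 0.16, 17 of 20 members stayed positive, and Pcdhb1, Pcdhb3 and Pcdhb9 were below 0. Only Pcdhb4 and Pcdhb14 were then called, while the median of all genes was -0.14 and 3.87% of genes were higher. Centring on the 12 mature neuron markers left 6 members called: Pcdhb4, Pcdhb8, Pcdhb14, Pcdhb15, Pcdhb16 and Pcdhb20, with 6.62% of all genes higher. Centring each library on its own median went the other way, with 20 members called, a member median of 0.76 and an all-gene median of 0.46, and 73.5% of genes higher. Pcdhb4 and Pcdhb14 were the only members called in all 16 alternatives, left-out pools included.

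**Figure D2:**
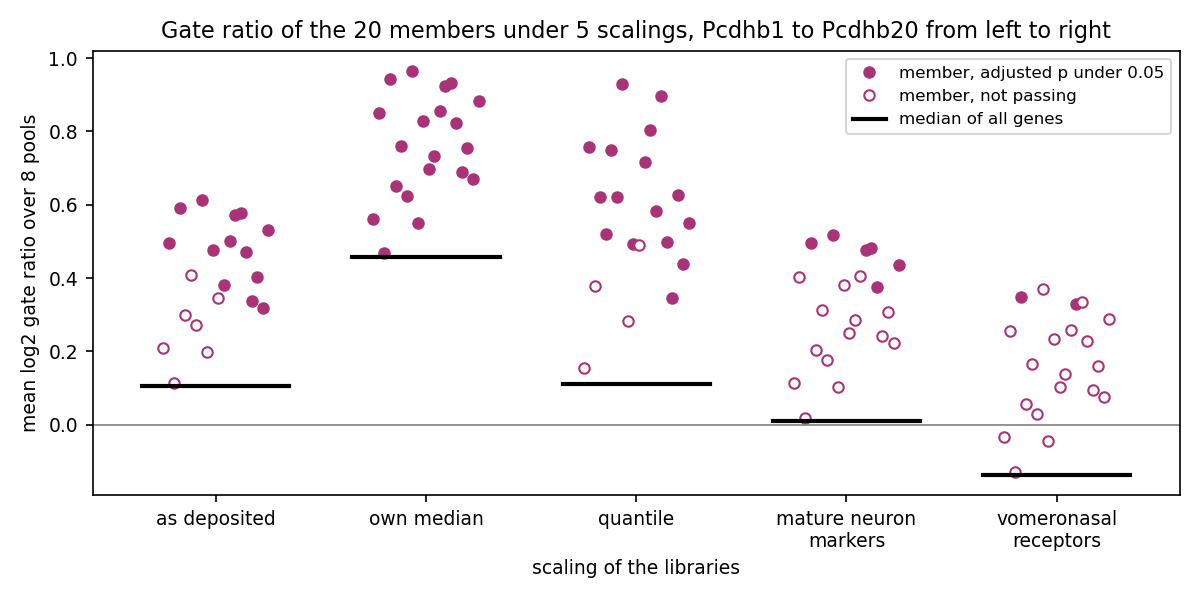
Mean log2 gate ratio over 8 pools (vertical axis) of the 20 beta protocadherins under 5 scalings of the libraries (horizontal axis), filled where the adjusted p is under 0.05, with the median of all genes as a bar. The members lie at or above the all-gene median under each scaling, and 13, 20, 16, 6 and 2 of them pass from left to right. The share of all genes passing under quantile normalisation is not given here, so its 16 is not read as a result about the members.

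Pcdhb14, Pcdhb4, Pcdhb20 and Pcdhb16 had the smallest adjusted p-values of the family. Each is an adhesion receptor of the same single-exon build. In filtered air Pcdhb14 read 9.21, 9.21, 9.24 and 9.16 in libraries titled GFP- of pools 1 to 4 and 8.68, 8.91, 8.47 and 8.51 in libraries titled GFP+ (deposited log2 values, as are all levels below). With bourgeonal it read 9.09, 9.48, 9.24 and 8.92 titled GFP- and 8.57, 8.72, 8.62 and 8.52 titled GFP+. The gates did not overlap in either treatment, and Pcdhb14 was the only 1 of 20 members without overlap over all 16 libraries, against 2.62% of all genes. Its gate ratio was 0.57 ± 0.088 (SE, adjusted p = 0.000634), positive in 8 of 8 pools.

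Pcdhb4 read 8.99, 8.91, 8.78 and 9.23 titled GFP- in filtered air, and 8.46, 8.32, 8.19 and 8.85 titled GFP+. Its bourgeonal values were 8.62, 8.72, 8.83 and 8.41 titled GFP- and 8.06, 7.98, 7.94 and 7.95 titled GFP+. The gates were apart with bourgeonal and overlapped in filtered air, where both libraries of pool 4 were the highest of their gate. The gate ratio was 0.59 ± 0.083 (SE, adjusted p = 0.000345), with 8 of 8 pools positive.

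Pcdhb20, the last beta gene of the set analysed, read 8.72, 9.15, 9.09 and 8.97 titled GFP- in filtered air and 8.65, 8.73, 8.20 and 8.62 titled GFP+. Its bourgeonal libraries read 8.92, 8.97, 8.90 and 8.89 against 8.28, 8.36, 8.22 and 8.32. The bourgeonal libraries were tightly grouped within each gate and far apart between gates, while in filtered air pool 1 hardly differed. Over the 8 pools the ratio was 0.53 ± 0.098 (SE, adjusted p = 0.00233), positive in 8 of 8 pools.

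Pcdhb16 read 8.81, 8.89, 8.93 and 8.43 titled GFP- in filtered air and 8.49, 8.26, 8.34 and 8.24 titled GFP+. Bourgeonal libraries read 8.62, 9.08, 8.73 and 8.53 titled GFP- and 8.23, 8.53, 7.86 and 8.28 titled GFP+. The gates overlapped in both treatments although every pool was higher on the titled GFP- side. Its mean ratio was 0.47 ± 0.098 (SE, adjusted p = 0.00492).

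**Figure D3:**
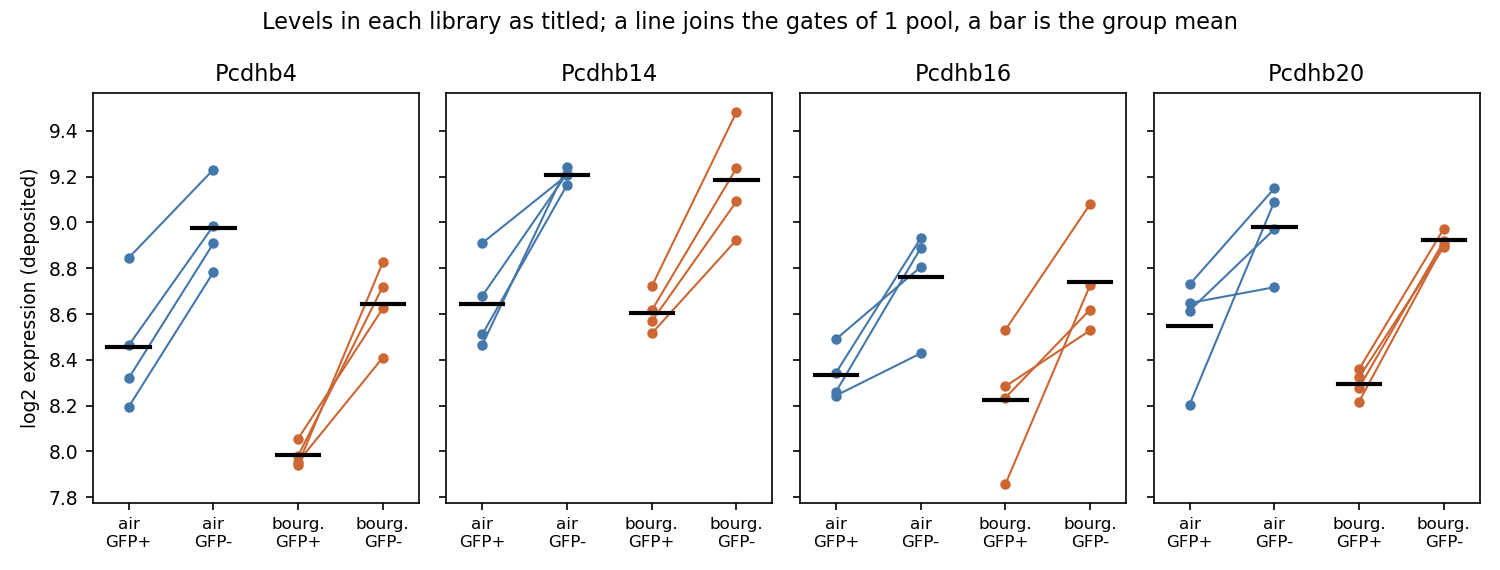
Deposited log2 level (vertical axis) of Pcdhb4, Pcdhb14, Pcdhb16 and Pcdhb20 in each library, by treatment (air or bourgeonal) and titled gate, with a line joining the gates of 1 pool and a bar for the group mean. All 8 lines rise towards titled GFP- for each of the 4 genes.

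Pcdhb8, Pcdhb13 and Pcdhb17 separated the gates in filtered air but not with bourgeonal. Together with Pcdhb14 they were the 4 of 20 members whose gates did not overlap in filtered air, against 8.1% of all genes. Pcdhb8 read 6.80, 7.10, 7.15 and 6.64 titled GFP- and 6.42, 6.09, 5.62 and 5.95 titled GFP+ in filtered air. With bourgeonal it read 6.07, 6.75, 6.09 and 6.49 against 6.41, 5.91, 5.60 and 6.20, so pool 1 was lower on the titled GFP- side. Its gate ratio of 0.61 ± 0.15 (SE, adjusted p = 0.0131) was the largest of the family.

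Pcdhb13 read 6.56, 6.67, 7.01 and 6.48 against 6.05, 6.22, 6.30 and 6.35 in filtered air. With bourgeonal it read 6.94, 7.01, 6.72 and 6.14 against 6.71, 5.79, 5.90 and 6.19, and pool 4 was nearly level. Its ratio over all pools was 0.50 ± 0.14 (SE, adjusted p = 0.0232).

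Pcdhb17 read 9.46, 9.52, 9.56 and 9.68 titled GFP- and 9.09, 9.19, 9.12 and 9.07 titled GFP+ in filtered air. With bourgeonal it read 9.15, 9.42, 9.12 and 9.22 against 9.03, 8.71, 8.87 and 9.36, with pool 4 lower on the titled GFP- side. The filtered-air gates were apart by more than the whole range of either gate, whereas the bourgeonal gates overlapped. The gate ratio was 0.34 ± 0.10 (SE, adjusted p = 0.0339).

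Pcdhb15 and Pcdhb19 showed the opposite arrangement, with gates apart with bourgeonal and overlapping in filtered air. Pcdhb1, Pcdhb4, Pcdhb14 and Pcdhb20 shared it in their bourgeonal libraries, which makes 6 of 20 members without overlap there, against 9.17% of all genes. Pcdhb15 read 6.48, 6.12, 6.60 and 7.09 against 6.26, 6.34, 5.97 and 6.03 in filtered air, and 6.76, 6.42, 6.58 and 6.70 against 5.80, 6.09, 5.80 and 5.85 with bourgeonal. Only filtered-air pool 2 was lower on the titled GFP- side. This gave a gate ratio of 0.58 ± 0.14 (SE, adjusted p = 0.0111).

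Pcdhb19 read 7.53, 8.15, 7.89 and 7.70 titled GFP- and 7.71, 7.76, 7.80 and 7.61 titled GFP+ in filtered air. In bourgeonal pools it read 7.92, 8.21, 7.91 and 7.65 against 7.45, 7.47, 7.29 and 7.33. Filtered-air pool 1 was the only pool lower on the titled GFP- side. The mean over pools was 0.32 ± 0.092 (SE, adjusted p = 0.0275).

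Pcdhb18 read 7.18, 6.90, 7.44 and 7.18 against 6.99, 6.88, 6.87 and 7.24 in filtered air, and 7.64, 7.22, 6.99 and 7.32 against 6.71, 6.70, 6.24 and 7.02 with bourgeonal. The gates overlapped in both treatments. Its gate ratio was 0.40 ± 0.10 (SE, adjusted p = 0.0167), positive in 7 of 8 pools.

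Pcdhb2, Pcdhb10 and Pcdhb12 passed with wide scatter, and Pcdhb2 and Pcdhb10 sat near or under the background guide. Pcdhb2 read 5.14, 4.997, 4.81 and 5.30 against 4.90, 4.86, 4.71 and 4.82 in filtered air, and 5.82, 5.25, 5.42 and 5.20 against 4.82, 4.46, 4.03 and 5.38 with bourgeonal. Its gates overlapped in both treatments, and bourgeonal pool 4 was lower on the titled GFP- side. The mean ratio was 0.50 ± 0.15 (SE, adjusted p = 0.0324).

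Pcdhb12 read 6.48, 6.02, 6.24 and 6.69 against 6.40, 6.00, 6.26 and 5.99 in filtered air, and 6.10, 6.47, 5.65 and 6.62 against 5.69, 5.40, 5.52 and 5.96 with bourgeonal. In filtered air only pool 4 stood clearly higher on the titled GFP- side. The gate ratio was 0.38 ± 0.12 (SE, adjusted p = 0.0441).

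Pcdhb10 read 4.17, 4.47, 3.71 and 3.99 against 3.89, 3.65, 3.41 and 3.22 in filtered air, and 3.77, 4.54, 4.31 and 3.64 against 3.53, 3.48, 3.82 and 3.79 with bourgeonal. Every group mean lay under the background guide of its group, which ranged from 4.57 to 4.97. The gate ratio of 0.48 ± 0.13 (SE, adjusted p = 0.0239) is therefore a ratio of values not above background.

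Pcdhb1, the first gene of the cluster, gave a steady signal in all libraries, from 15.96 to 16.50. It read 16.21, 16.47, 16.50 and 16.22 titled GFP- and 16.24, 16.32, 16.24 and 16.23 titled GFP+ in filtered air. After bourgeonal it read 16.32, 16.47, 16.47 and 16.44 against 15.96, 16.16, 16.09 and 16.19. The gates were apart with bourgeonal only, and the gate ratio of 0.21 ± 0.078 (SE, adjusted p = 0.0735) did not pass.

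The other 6 members did not pass. Pcdhb7 missed narrowly (adjusted p = 0.0513): its ratio was 0.27 ± 0.092 (SE) and positive in 8 of 8 pools. Pcdhb6 had a ratio of 0.41 and an adjusted p of 0.0724. Pcdhb5, Pcdhb9 and Pcdhb11 had ratios of 0.30, 0.20 and 0.34 with adjusted p-values of 0.212, 0.243 and 0.192, and each was positive in 5 of 8 pools. Pcdhb3 had the smallest ratio, 0.11 (95% interval -0.23 to 0.46, adjusted p = 0.611), and the widest scatter between pools, from -1.29 in filtered-air pool 3 to 0.80 in bourgeonal pool 3. Across the family 5 members were positive in 8 of 8 pools, 10 in 7, 1 in 6 and 4 in 5.

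The mean gate ratio had an SD of 0.14 over the 20 members, and the SE of a single member's ratio ran from 0.078 for Pcdhb1 to 0.18 for Pcdhb11. By mean level over all libraries, all 5 members between 8 and 10 were called (Pcdhb4, Pcdhb14, Pcdhb16, Pcdhb17 and Pcdhb20), with ratios of 0.34 to 0.59, against 22.0% of all genes in that range. Of 9 members between 6 and 8, 6 were called, against 20.6% of genes there, and of 5 members up to 6, 2 were called, against 9.98%. Above 10 stood Pcdhb1 alone, which was not called, against 15.5%. The SDs over pools were 0.16 to 0.27 for the 5 members between 8 and 10 and 0.20 to 0.64 for the 5 members up to 6. The gate ratio had a Spearman correlation of 0.23 with the number in the gene symbol over the 20 members, which share the same libraries.

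Every pool shared the direction. The median gate ratio over members was 0.23, 0.36, 0.50 and 0.37 in filtered-air pools 1 to 4 and 0.40, 0.66, 0.65 and 0.32 in bourgeonal pools 1 to 4. The pool with the fewest positive members was filtered-air pool 1, with 14 of 20, and bourgeonal pool 3 had 20 of 20. In those pools 54.5% and 58.3% of all genes were positive. The median over all genes stayed between 0.05 and 0.09 in the 8 pools. The mean level of the members in a library was 7.56 to 7.63 titled GFP- and 7.24 to 7.38 titled GFP+ in filtered air. With bourgeonal it was 7.51 to 7.73 titled GFP- and 6.87 to 7.23 titled GFP+, so the gates did not overlap by this mean in either treatment. The same held, with titled GFP- higher, for the means of the vomeronasal receptors, the mature neuron markers and the non-clustered protocadherins described below. The vomeronasal mean was 3.58 to 3.68 against 3.28 to 3.42 in filtered air, and 3.53 to 3.64 against 3.27 to 3.44 with bourgeonal. The mean of the odorant receptors overlapped in both treatments.

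**Figure D4:**
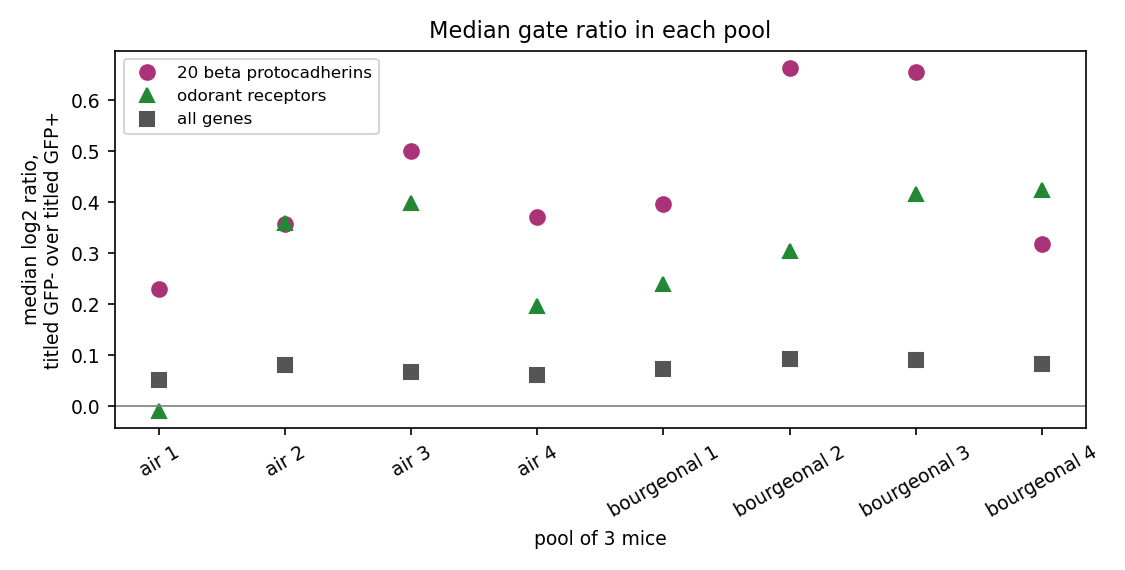
Median log2 gate ratio (vertical axis) in each of the 8 pools (horizontal axis) for the 20 beta protocadherins, for odorant receptors and for all genes. The beta protocadherins lie between 0.23 and 0.66 and above the all-gene median in every pool. The odorant receptor median lies above theirs in bourgeonal pool 4 (0.42 against 0.32). It is about level in filtered-air pool 2 (0.360 against 0.358) and below theirs in the other pools.

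In filtered-air pools alone 3 of 20 members were higher and 0 lower, against 6.23% of all genes higher and 9.95% lower. Without adjustment 9 members had a p under 0.05, as did 5578 of all 19505 genes. The 3 were Pcdhb8 at 0.90 (adjusted p = 0.0157), Pcdhb14 at 0.57 (adjusted p = 0.00988) and Pcdhb4 at 0.52 (adjusted p = 0.0118), by limma with the spread shared over all 8 pools. The median over members was 0.30 and 19 of 20 were positive, the exception being Pcdhb3 at -0.30, whose level in the libraries titled GFP- was not above the background guide. Of all genes 62.1% were positive, and of the vomeronasal receptors 272 of 321. Without filtered-air pool 2 or pool 3, 1 member was called. With genes near background left out 6 were called, and 5 without the pool as a block.

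In bourgeonal pools alone 9 of 20 members were higher and 0 lower, against 7.82% of all genes higher and 10.2% lower. Without adjustment 13 members had a p under 0.05, as did 6013 of all 19505 genes. The ratios of the 9 were 0.75 for Pcdhb2, 0.73 for Pcdhb15, 0.66 for Pcdhb4, 0.63 for Pcdhb20, 0.62 for Pcdhb18, 0.58 for Pcdhb14, 0.57 for Pcdhb12, 0.54 for Pcdhb19 and 0.51 for Pcdhb16, with limma adjusted p-values from 0.00254 for Pcdhb4 to 0.0494 for Pcdhb12. The median over members was 0.53, and 20 of 20 were positive, against 63.9% of all genes and 261 of 321 vomeronasal receptors. The number called was 4 without bourgeonal pool 1 or pool 3, and 5 without pool 2. Centring on the vomeronasal receptors or on the mature neuron markers left 1 member called in bourgeonal pools. Over the 20 members, measured in different pools of mice, Pearson's r between the filtered-air and bourgeonal ratios was -0.055 and Spearman's rho 0.084.

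The difference between these counts was not borne out by the test of the difference itself. The gate ratio with bourgeonal minus that in filtered air passed for 0 of 20 members, and for 0% of all genes (limma), with 2 members and 1109 genes at an unadjusted p under 0.05. The smallest adjusted p of a member was 0.823. The difference was positive for 16 of 20 members, with a median of 0.21, against 0.02 over all genes and 0.13 over 1091 odorant receptors. Of all genes 53.1% were positive, and of the odorant receptors 64.2%. Centred on the mature neuron markers the difference was positive for 13 of 20 members, with a median of 0.076.

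The members with the smallest p, none of which passed, were Pcdhb3, Pcdhb19 and Pcdhb18. Pcdhb3 was not above the background guide in filtered-air libraries titled GFP- (mean 4.81, guide 4.97). Its measured ratio was -0.30 in filtered air and 0.52 with bourgeonal, a difference of 0.82 (95% interval 0.13 to 1.51), and filtered-air pool 3 stood at -1.29. Pcdhb19 and Pcdhb18 both differed by 0.44, with intervals of 0.03 to 0.85 and -0.02 to 0.91. Pcdhb8 went the other way, at -0.58 (95% interval -1.26 to 0.10). For Pcdhb14 the difference was 0.01 (95% interval -0.38 to 0.40). Simulated differences of 0.5, 1 and 2 (log2) were found by the same fit in 2%, 36% and 100% of the altered genes. That simulation altered 50 genes at each size, while 0% of all genes passed in the data. Adjustment over all genes depends on that number, so these shares do not carry over to the data.

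**Figure D5:**
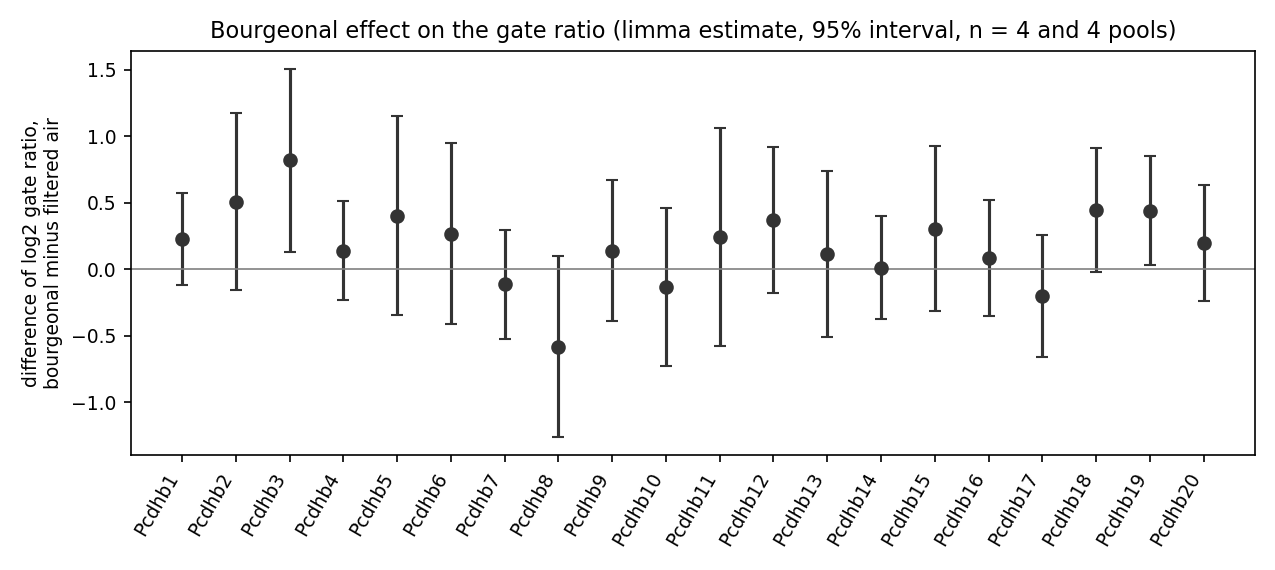
Difference of the log2 gate ratio, bourgeonal minus filtered air (vertical axis), for each beta protocadherin (horizontal axis), with the limma 95% interval from 4 and 4 pools. The estimates run from -0.58 for Pcdhb8 to 0.82 for Pcdhb3, and none passed after adjustment.

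Bourgeonal was also compared with filtered air within each gate, on 4 and 4 libraries. In libraries titled GFP- 0 of 20 members passed, as did 0% of all genes, with 3 members and 869 genes at an unadjusted p under 0.05 (limma). The median over members was -0.02, with 9 of 20 positive, against 53.0% of all genes. The smallest p-values belonged to Pcdhb8 at -0.57 (95% interval -1.01 to -0.14), Pcdhb3, not above the background guide in filtered air, at 0.56 (95% interval 0.04 to 1.08) and Pcdhb17 at -0.33 (95% interval -0.64 to -0.02), each with an adjusted p of 0.996. Centred on the vomeronasal receptors the median turned to 0.03, with 13 of 20 positive.

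In libraries titled GFP+ 0 of 20 members passed, against 0.0103% of all genes, which is 2 genes. At an unadjusted p under 0.05 there were 3 members and 827 genes (limma). The difference was negative for 18 of 20 members, with a median of -0.16, against -0.01 over all genes and -0.09 over the odorant receptors. It was negative for 9963 of 19505 genes and for 676 of 1091 odorant receptors. Centring on the mature neuron markers brought the median over members to -0.011, with 9 of 20 positive. The members with the smallest p were Pcdhb12 at -0.52 (95% interval -0.89 to -0.15), Pcdhb4 at -0.47 (95% interval -0.83 to -0.11) and Pcdhb19 at -0.34 (95% interval -0.63 to -0.04), each with an adjusted p of 0.999. Pcdhb4 had a mean of 8.46 in filtered air and 7.98 with bourgeonal, and its bourgeonal libraries lay below all 4 filtered-air libraries of that gate.

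Non-clustered protocadherins are single genes outside the shared promoter arrays. Of 12 measured 6 were higher and 1 lower over the 8 pools (limma, adjusted p under 0.05), against 14.4% and 13.2% of all genes. The largest were Pcdh10, a protocadherin of growing axons, at 1.37 ± 0.10 (SE, adjusted p = 1.95e-06), Pcdh8 at 1.29, Pcdh7 at 1.21 and Pcdh17 at 0.74. The 1 lower gene was Pcdh11x at -0.74. All of these were called with the same sign under the 5 scalings. The list split 4 higher and 3 lower when centred on the vomeronasal receptors, against 3.87% and 22.5% of all genes.

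Genes beside the cluster were counted in the same fit. Of the 10 nearest measured genes on either side, 20 in all, 3 were higher and 1 lower, with a median of 0.11, a share and a median close to the 14.4% higher and the 0.10 of all genes. The 3 were Pcdh1 at 0.47, itself a non-clustered protocadherin, Rell2 at 0.43 and Wdr55 at 0.32. The 1 lower gene was Cd14, a receptor for bacterial lipopolysaccharide on myeloid cells, at -3.45. Centred on the vomeronasal receptors 0 of the flanking genes were higher and 2 lower, against 3.87% and 22.5% of all genes. Centred on each library's median 17 were higher and 1 lower, against 73.5% of all genes higher.

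Among 22 measured genes that act on clustered protocadherin promoters or their chromatin, 0 were higher and 2 lower, against 14.4% and 13.2% of all genes. These were Smchd1, a chromatin protein that represses the clustered protocadherins, at -1.20 ± 0.11 (SE, adjusted p = 1.36e-05) and Rest, a repressor of neuronal genes, at -0.97 ± 0.11 (SE, adjusted p = 7.27e-05). Both were lower under the 5 scalings. Ctcf, which loops the promoters to their enhancers, had a ratio of -0.04 (adjusted p = 0.747). That value ran from -0.28 to 0.32 over the scalings. After own-median centring 17 of the 22 were higher, a share near the 73.5% of all genes, and 2 lower. Centred on the vomeronasal receptors 0 were higher and 9 lower, against 3.87% and 22.5% of all genes.

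Of 22 measured genes for protocadherin signalling and cleavage 3 were higher, a share near the 14.4% of all genes, and 5 lower, against 13.2%. The largest changes were Marcks, an actin-binding protein kinase C substrate, at -2.30, and the kinases Ptk2b at -0.90 and Fyn at -0.64. Psen2, a subunit of gamma-secretase, was higher at 0.62. Centred on each library's median this list had 14 higher, a smaller share than the 73.5% of all genes, and 3 lower. Centred on the vomeronasal receptors it had 1 higher and 10 lower, against 22.5% of all genes lower.

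Other adhesion and guidance genes of olfactory axons had 4 of 16 measured members higher and 3 lower, against the same shares of all genes. Kirrel2, an adhesion molecule that depends on neuronal activity, stood at 1.05, Epha5, an ephrin receptor, at 0.85, Dscam at 0.43 and Sema3a, a repulsive guidance ligand, at -0.78. Dscam was called under 3 of 5 scalings and the other 3 under all 5. This list had 12 higher, a share near the 73.5% of all genes, and 1 lower after own-median centring. Centred on the vomeronasal receptors it had 2 higher and 5 lower, against 3.87% and 22.5% of all genes.

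Markers of other cells moved along with the gate. Of the mature neuron markers 2 of 12 were higher, a share near the 14.4% of all genes, and 0 lower, against 13.2%. Their median was 0.14, and it was -0.10 when centred on the vomeronasal receptors. After own-median centring 12 of 12 were higher, against 73.5% of all genes. Lower in libraries titled GFP- were 10 of 10 immune, 7 of 7 progenitor, 7 of 7 microvillar and 7 of 8 sustentacular markers. So were 6 of 12 immature neuron and 4 of 8 glial and stromal markers, against 13.2% of all genes. Own-median centring turned the median of the immature neuron markers to 0.04, with 6 higher and 5 lower. That of the glial and stromal markers turned to 0.13, with 3 higher and 2 lower, against 73.5% of all genes higher. Own-median centring left 10 of 10 immune, 7 of 7 progenitor, 7 of 7 microvillar and 5 of 8 sustentacular markers lower. The share of all genes lower under that scaling is not given here. Mean levels in libraries titled GFP- and titled GFP+ were 5.29 to 5.60 and 7.29 to 7.84 for progenitor markers. They were 4.15 to 4.75 and 6.93 to 7.96 for microvillar markers, and 7.01 to 8.18 and 8.79 to 9.39 for sustentacular markers. Immature neuron markers stood at 12.2 to 12.4 and 13.4 to 13.7, and glial and stromal markers at 4.77 to 5.46 and 5.35 to 5.90. In libraries titled GFP- the group mean of 6 of 10 immune markers was under the background guide. The part of these cells in the gate ratio of the beta protocadherins was not tested.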

How the data were processed

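RNA from sorted olfactory mucosa cells was hybridised to Clariom S arrays, 16 libraries of 3 pooled mice. The authors deposited log2 expression values per probe set. The submitters' processing notes name Affymetrix Expression Console, while its version, its scaling and the build are not stated in what was used here. Arrays have no read depth, and their number limits the precision.

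Probe sets were named through the platform annotation: 6546 with neg or pos in their ID and 31 spike-in controls were left out, and 19572 named 1 gene. The remaining 2697 named none or more than 1 gene and were left out too. The brightest probe set of a gene was kept, which left 19505 genes. Probes of near-identical beta genes may cross-hybridise, which was not tested. Names and the gene order used to find the flanking genes come from GRCm38.p6, and no coordinates or sequences are given.

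Gate ratios were fitted with limma 3.58.1 in R 4.3.3 (lmFit, eBayes) on all 16 libraries with a block for each pool. The pairing of gates was inferred from the number of mice, and within pools the libraries' deviations from their group means had correlations of 0.098 to 0.287. Among libraries titled GFP-, those of the same number correlated across treatments, in different mice, at 0.088 to 0.161. The correlations therefore do not tell shared mice from a shared replicate number. Bourgeonal was compared with filtered air within each gate on 8 libraries. Two-sided p-values were adjusted over all genes by Benjamini-Hochberg, with a threshold of 0.05. Libraries are separate pools of mice per the labels, so p-values measure the spread between pools. The within-gate values printed have no block. Libraries of the same number correlated across treatments at 0.157 to 0.210 among those titled GFP+, which meets the rule for pairing, and a fit with the number as a block there also called 0 members (smallest adjusted p = 0.819).

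The members, gene lists, comparisons and alternatives were chosen with earlier results of these data known. Values per library are given for members past the threshold in any comparison and for the 3 with the highest mean. Where none passed, the 3 with the smallest p are named, and from each list up to 4 past the threshold by size, with S100a5, Omp, Pcdh10 and Ctcf for reference. Omp had a mean gate ratio of 0.04. Other names were chosen after their values were seen. In a test on simulated data (19505 genes) the mean gate ratio recovered 30% of log2 changes of 0.5 and 92% of log2 changes of 1. The simulation altered 50 genes at each size, while 2810 genes were called higher in the data. Adjustment over all genes depends on that number, so these shares do not carry over to the data.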

Additional observations from a re-analysis of the deposited data

Results flagged for a closer look

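In groups of 4 libraries or pools, 8 of 120 groups of the beta protocadherins held a value far from the other 3 (Dixon's test). Chance gives about 1 in 20. Pcdhb11 was lowest in filtered-air pool 4 titled GFP-, at 6.99 against 7.94 to 8.04, and in filtered-air pool 3 titled GFP+, at 7.34 against 7.57 to 7.60. Pcdhb9 was low in filtered-air pool 3 titled GFP+, at 7.46 against 7.90 to 7.98. That pool then had a Pcdhb9 gate ratio of 0.56 where the other filtered-air pools had -0.04 to 0.02. Pcdhb12 had a gate ratio of 0.70 in filtered-air pool 4 against -0.02 to 0.09 in the others. Among libraries titled GFP+, Pcdhb1 read 16.32 in filtered-air pool 2 against 16.23 to 16.24. Pcdhb7 read 5.42 in bourgeonal pool 3 against 5.77 to 5.80, and Pcdhb15 read 6.09 in bourgeonal pool 2 against 5.80 to 5.85. Of the members with such a value, Pcdhb12 and Pcdhb15 were among the 13 called over all pools.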

How the results depend on the processing

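The direction of the family's median gate ratio held under every alternative run, and the number of members called did not. Over all pools (13 called, median 0.41) it was 20 with a median of 0.76 when each library was centred on its own median. That scaling also called 73.5% of all genes higher. Quantile normalisation gave a median of 0.57. Centring on the vomeronasal receptors gave 2 and 0.16, and centring on the mature neuron markers 6. The last 2 were chosen after seeing the data. In filtered-air pools (3 called, median 0.30) own-median centring gave 17 and 0.66, quantile normalisation 9 and 0.48, leaving out dim genes 6, and the vomeronasal receptors 1 and 0.045. In bourgeonal pools (9 called, median 0.53) own-median centring gave 20 and 0.88, quantile normalisation 14, the vomeronasal receptors 1 and 0.30, and the mature neuron markers 1. Leaving out 1 pool gave 7 to 12 called over all pools, 1 to 4 in filtered air and 4 to 8 with bourgeonal. For filtered-air or bourgeonal pools alone, the share of all genes called under each alternative is not given here. Those counts are therefore not read as a result about the members.

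Without the replicate block for the pool 12, 5 and 8 members were called over all, filtered-air and bourgeonal pools, with the share of all genes not given here. Replicate numbers as a paired block across treatments called 0 members for the difference and in either gate, as did each other alternative run. Signal limits the family: 19 members lay above the 95th percentile of the vomeronasal receptors in some group, and 1 above their maximum. The scaling behind the deposited values is not known, and the cause of the shift between scalings was not tested.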
